A study of Mus musculus with 6 samples.

Results

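Mouse double positive (DP) thymocytes that had formed in mice were compared with the cultured pro-T (ProT) cells from which they came, on 4 of the 6 gene arrays of the study. All 19938 genes with a probe set that maps to that gene alone were compared, and a gene with several such probe sets was represented by the brightest on average. All 3 populations of the study descend from mouse bone marrow cells transduced with NUP98-HOXB4, a fusion protein that lets blood progenitors expand in culture. HSC, the starting population (2 arrays), was grown with IL6 and SCF, and its values are given only as a reference. ProT (2 arrays) was grown with IL7 and DLL4, a ligand of Notch1. DP (2 arrays) came from ProT cells after injection into a Rag2-/- mouse. A mouse without Rag2 cannot assemble antigen receptor genes and has no double positive thymocytes of its own. Its thymus still holds some cells of other types. How the DP cells were isolated, and whether replicates came from separate cultures or mice, is not given in the sources used here, so the p-values measure spread among these samples alone, and that spread may be technical. ProT and DP differ in differentiation stage and also in culture against animal, and these cannot be told apart.

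Double positive thymocytes carry both CD4 and CD8 and follow the beta selection step, at which a pre-T cell receptor drives several rapid divisions. The cells then become small, stop dividing, rearrange the receptor alpha chain and wait for positive selection, which needs a T cell receptor signal of moderate strength. The microRNA miR-181a is known in thymocytes for raising T cell receptor sensitivity, by lowering phosphatases that dampen the signal.

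The values are log2 signals, and the median probe set of an array lay between 6.73 and 6.91. The median of all gene values was 7.17, and signals under it were not shown to lie above background, so a fold whose lower mean was under it is written as at least its measured size. A lower gauge, chosen after values were seen, is the 1027 olfactory receptor genes, with a median signal of 4.66 and a 95th percentile of 6.045. The level of 7.17 was kept as the stricter one. The 2 ProT arrays were 2-fold or more apart at 144 genes and the 2 DP arrays at 0 genes, and the number of arrays limits the precision. The arrays fitted their labels: Cd4 and Cd8a lay at or below 6.42 on the HSC and ProT arrays and at or above 12.84 on the DP arrays, and Cd3g, a T cell receptor complex gene, lay between 12.99 and 13.28 on the ProT and DP arrays. Rag2, the gene that the host lacks, was at 11.24 and 11.19 on the DP arrays, but whether its probes lie in the deleted part of the host allele was not tested. Xist, the RNA of the inactive X chromosome, lay between 12.35 and 13.05 on all 6 arrays. In bulk samples, fewer cells of a type and less RNA per cell cannot be told apart.

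Mir181a-1 and Mir181b-1 had the largest rises of all microRNA genes. Their mature sequences are shown to make the shared seed visible, with those of other called genes of the miR-181, miR-15, miR-128 and miR-17 groups. The seed, bases 2 to 8 counted from the 5′ end, sets most of a microRNA's target choice and is in capitals; sequences and positions are from RefSeq, build GRCm38.p6.
miR-181a-5p, from Mir181a-1 (chr1:137966455-137966541, plus strand) and Mir181a-2 (chr2:38852735-38852810, plus strand): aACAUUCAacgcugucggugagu
miR-181b-5p, from Mir181b-1 (chr1:137966639-137966718, plus strand) and Mir181b-2 (chr2:38853830-38853918, plus strand): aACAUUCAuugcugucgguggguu
miR-15b-5p, from Mir15b (chr3:69009772-69009835, plus strand): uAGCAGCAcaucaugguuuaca
miR-16-5p, from Mir16-2 (chr3:69009902-69009996, plus strand): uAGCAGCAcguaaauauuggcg
miR-128-3p, from Mir128-2 (chr9:112118636-112118711, minus strand) and Mir128-1 (chr1:128202361-128202430, plus strand): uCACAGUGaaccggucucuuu
miR-17-5p, from Mir17 (chr14:115043671-115043754, plus strand): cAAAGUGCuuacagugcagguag
miR-20a-5p, from Mir20a (chr14:115044157-115044263, plus strand): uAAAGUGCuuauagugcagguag
miR-19b-3p, from Mir19b-1 (chr14:115044305-115044391, plus strand): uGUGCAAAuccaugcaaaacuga

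A probe set of a hairpin gene reads the precursor or the transcript around it, so its signal says nothing of the mature strand. A gene was called at an adjusted p below 0.05 in limma with Benjamini-Hochberg adjustment over all 19938 genes. Changes are log2 differences of the DP mean minus the ProT mean, with limma's standard error (SE, n = 2 arrays in each population). Mir181a-1 was at 4.74 and 4.65 on the ProT arrays and at 8.94 and 8.77 on the DP arrays, a change of 4.16 ± 0.09 (at least 17.9-fold, adjusted p = 8.83e-06). Its neighbour Mir181b-1 was at 8.66 and 9.07 in ProT and at 12.66 and 12.73 in DP, a change of 3.83 ± 0.29 (adjusted p = 0.000316). Both genes had DP arrays far above every HSC and ProT array, since HSC lay at 4.77 and 4.88 for Mir181a-1 and at 7.78 and 8.63 for Mir181b-1. The second copies, on chromosome 2, rose as well, Mir181b-2 by 2.27 ± 0.31 and Mir181a-2 by 1.57 ± 0.16, to DP values between 7.51 and 8.68. Mir181c and Mir181d, another pair with the same seed, did not pass (0.07 ± 0.14 and 0.33 ± 0.11), so 4 of the 6 measured genes with the ACAUUCA seed rose. The spanning gene Nr6a1 of the chromosome 2 pair did not pass (0.31 ± 0.12).

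Of the seed AGCAGCA, that of miR-15 and miR-16, which are known to target BCL2 and cyclin transcripts, 3 of 6 measured genes rose and 0 fell. Mir15a was at 7.66 and 7.91 in ProT and at 10.18 and 10.20 in DP (2.40 ± 0.19, adjusted p = 0.000362). Mir16-1, with the same seed, did not pass (0.25 ± 0.10), and its signals lay under 7.17 on every array. Mir15b rose by 1.54 ± 0.22 and Mir16-2 by 1.37 ± 0.08, though Mir16-2 stayed at or below 5.82 on every array. Both lie within Smc4, a condensin gene, which rose from 9.77 and 11.13 to 12.10 and 12.19. Mir128-2 rose by 1.15 ± 0.11 and lies within Arpp21, a double positive thymocyte gene that rose by 3.16 ± 0.32. Mir128-1, of the same mature sequence, rose by 0.93 ± 0.17 within R3hdm1, which did not pass (0.10 ± 0.10). In the miR-17 to miR-92 cluster, which supports proliferation, 3 genes were lower and others did not pass. Mir19b-1 fell by 1.15, Mir20a by 0.84 and Mir17 by 0.60 on the log2 scale, all with signals under 7.17 on every array, so no fold is given. Mir18, brighter than these at 8.31 and 8.06 in ProT and 8.10 and 8.05 in DP, did not pass (-0.11 ± 0.11), nor did Mir19a (-0.31 ± 0.18) or the host transcript Mir17hg (-0.49 ± 0.39). Over all clusters, 2 of 6 measured genes with the seed AAAGUGC and 1 of 3 with GUGCAAA were lower.

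**Figure D1:**
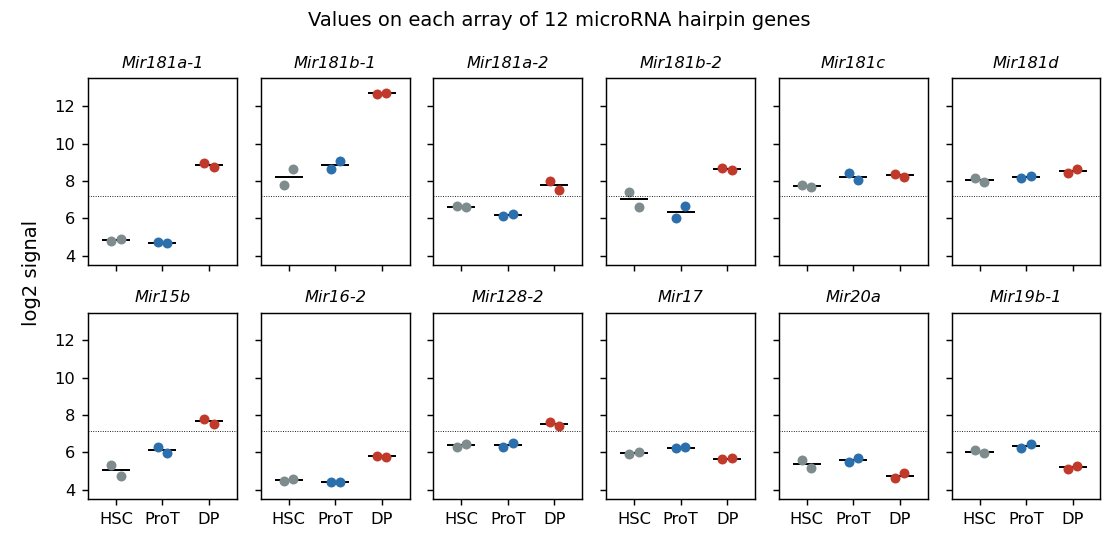
Log2 signal of 12 microRNA hairpin genes on the HSC, ProT and DP arrays. Each point is an array, the bars are means of 2 arrays and the dotted line marks 7.17, the median of all gene values. Mir181a-1 and Mir181b-1 stand highest in DP against the other populations, while Mir181c and Mir181d lie between 7.68 and 8.64 throughout and Mir17, Mir20a and Mir19b-1 stay below the line.

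Of all 300 measured microRNA genes, chosen as a family after values were seen, 47 were called higher and 7 lower, beside 14.5% of all genes higher and 18.1% lower. Without DP replicate 1 the counts were 24 and 2, without DP replicate 2 they were 21 and 2, and without ProT replicate 2 there were 29 higher. Median centring gave 88 higher and 5 lower, and the filter on dim genes 25 and 1. On all 6 arrays 232 of the 300 lay under 7.17. Outside these seeds the largest rise was that of Mir505, 1.88 ± 0.30, from 8.11 and 8.70 to 10.28 and 10.29. Mir687 (1.56 ± 0.16) and Mir568 (1.45 ± 0.26) followed, both under 7.17 in both means.

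Over all genes, 6506 (32.6%) were called between DP and ProT, 2899 higher (14.5%) and 3607 lower (18.1%). Changes of at least 2-fold numbered 879 (4.41% of all genes) and 1420 (7.12%). The counts of each list stand beside these shares. Of the called genes 894 had both means under 7.17. Without DP replicate 1, 1467 were higher and 2280 lower, and without DP replicate 2, 1484 and 2047; DP had the smallest spread between replicates. After median centring of the arrays, the median change of all genes was 0.14 in place of 0.02, and 61.2% of the called genes were higher in place of 44.6%. The centring used only probe sets that map to 1 gene, with medians of 7.27 and 7.285 in ProT and 7.15 and 7.16 in DP. Over all probe sets the order was the opposite, at 6.73 and 6.73 in ProT and 6.90 and 6.91 in DP, and centring on those was not tried. Each list median described here kept its sign under median centring, quantile normalization and cyclic loess unless noted. Beyond 8-fold, 76 genes were higher and 175 lower.

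**Figure D2:**
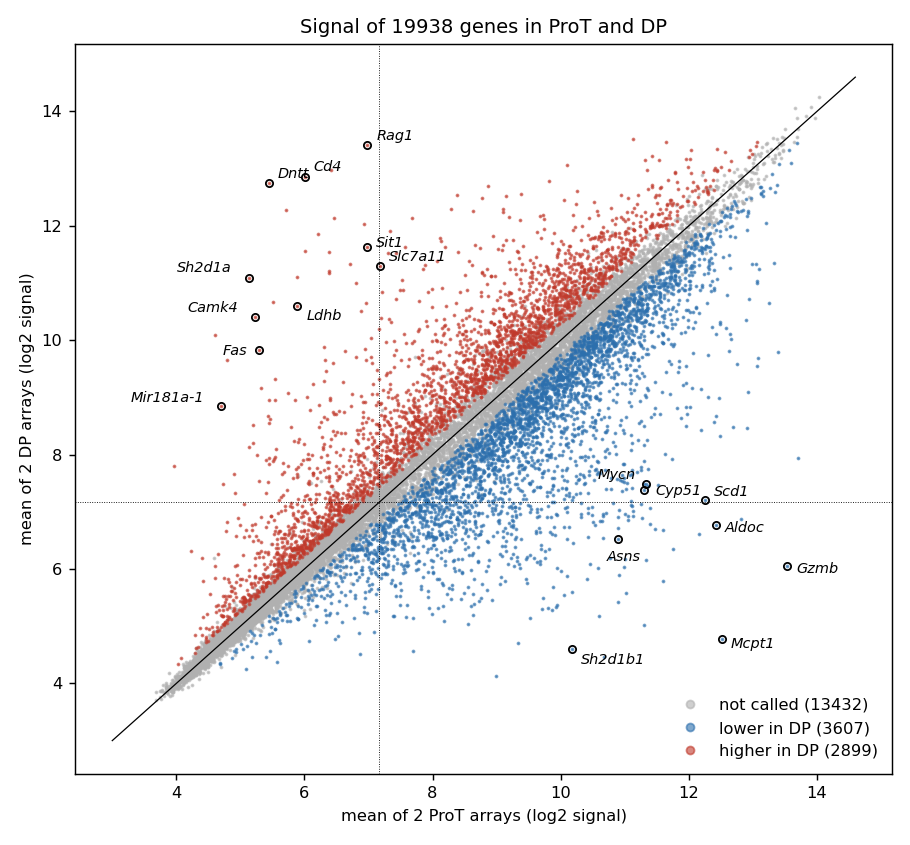
Mean log2 signal of 2 DP arrays against the mean of 2 ProT arrays for 19938 genes, coloured by call (2899 higher, 3607 lower and 13432 not called). The diagonal marks equal signal and the dotted lines mark 7.17. The largest rises start from ProT means under that line (Dntt, Cd4, Rag1) and many of the largest falls end under it (Mcpt1, Gzmb, Aldoc).

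Behind the co-receptors, Rag1 and Dntt, the 15 largest rises held genes of several kinds. Trav7n-5, a variable segment of the receptor alpha chain, was at 4.71 and 4.51 in ProT and at 10.16 and 10.02 in DP, at least 44.8-fold higher. All 6 measured alpha variable segments rose, by a median of 3.12, and their sequences are alike enough to share probes. Ly86, a partner of a toll-like receptor relative on B cells and myeloid cells, was at 6.73 and 6.20 in ProT and at 12.12 and 12.16 in DP, and HSC also carried it at 9.12 and 10.70. Slc6a19, an amino acid transporter, rose by 5.16 ± 0.07, and Dgkeos, an antisense RNA of the diacylglycerol kinase gene Dgke, by 5.15 ± 0.09. Dgke itself rose by 2.78 ± 0.09, and whether the probes of each read the other strand was not tested.

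Among the 15 largest falls, several genes had low values in HSC too and so were high in ProT alone. Psg17, a pregnancy-specific glycoprotein gene, was at 11.24 and 10.79 in ProT and at 5.74 and 5.43 in DP, and at 5.69 and 4.93 in HSC. Igf2, a fetal growth factor, was at 11.83 and 11.69 in ProT, 5.99 and 6.72 in DP and 6.40 and 6.58 in HSC. Avil, an actin-binding protein of the same gelsolin family as Scin, changed by -5.17 ± 0.17 and Scin fell at least 61.3-fold. Ifitm1, an interferon-induced membrane protein also of stem cells, was different: it lay at 13.72 and 13.70 in ProT, 13.47 and 13.56 in HSC and only 8.02 and 7.85 in DP, 54.8-fold lower.

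T cell receptor signalling genes rose at this step, and so did a set of its inhibitors. Of 22 measured genes for CD3 chains and proximal signalling, 16 were higher and 0 lower, with a median change of 0.88 beside 0.02 for all genes. With either DP array left out, 10 were higher. Zap70, the kinase that binds the phosphorylated CD3 chains, was at 8.49 and 8.52 in ProT and at 11.16 and 11.13 in DP (2.64 ± 0.18, adjusted p = 0.000213). Cd247, the zeta chain itself, was at 9.08 and 8.95 in ProT and at 11.61 and 11.59 in DP (2.58 ± 0.10), and Sh2d2a, an adaptor of the kinase Lck, rose by 2.57 ± 0.07. Every DP array lay above every ProT array for these genes. Cd3e, already at 12.56 and 12.58 in ProT, rose by 0.72 ± 0.09.

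Of 28 inhibitors of T cell receptor signalling, 14 were higher and 6 lower (median 0.39). Leaving out either DP array left 9 higher, and 4 were lower without DP replicate 2. Sit1, a membrane adaptor that dampens the receptor, was at 6.85 and 7.11 in ProT and at 11.68 and 11.57 in DP (4.65 ± 0.16, adjusted p = 2.14e-05). Cd6, a scavenger receptor family protein related to Cd5, was at 6.87 and 6.54 in ProT and at 11.37 and 11.31 in DP, and Btla, an inhibitory receptor, rose by 1.85 ± 0.21. Both ProT arrays were under 7.17 for Sit1 and Cd6 and both DP arrays far above it. Among the 6 members that fell, Cd160 and Ctla4 are known from cytotoxic and activated cells. Cd160 went from 10.55 and 10.42 to 7.11 and 7.05 and Ctla4 from 9.29 and 9.30 to 7.25 and 6.90. The phosphatase gene Ubash3b fell too (-1.57 ± 0.12). NK and cytotoxic genes were high in ProT as well, as given below, and their part in the falls was not tested.

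Calcium signalling genes went both ways, 8 of 20 higher and 4 lower, with a median of 0.175. Camk4, a calcium-dependent kinase known in thymocytes, was at 5.17 and 5.28 in ProT and at 10.41 and 10.40 in DP, at least 36.2-fold higher (adjusted p = 2.29e-06). Itpr2, an inositol trisphosphate receptor that releases stored calcium, rose by 1.76 ± 0.18. Itpkb, a kinase of that messenger needed for positive selection, was at 10.01 and 9.92 in ProT and at 11.61 and 11.59 in DP (1.63 ± 0.14). The potassium channel gene Kcna3 rose by 1.55 ± 0.20. Ppp3cc, a calcineurin catalytic subunit, fell from 10.41 and 10.75 to 8.68 and 8.73, and the calcium channel subunit Orai3 changed by -1.63 ± 0.15. Without DP replicate 2, 5 were higher.

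Genes of the SLAM family moved in both directions. Of 13 measured members and adaptors, 7 were higher and 5 lower. Slamf6, which double positive thymocytes use to select innate-like T cells, was at 7.59 and 7.76 in ProT and at 12.15 and 12.13 in DP, 22.1-fold higher. Slamf1 was at 7.42 and 7.18 in ProT and at 11.50 and 11.56 in DP, and their adaptor Sh2d1a (SAP) rose from 5.10 and 5.18 to 11.13 and 11.06. The related adaptor of NK cells, Sh2d1b1 (EAT-2), ran the other way, from 10.08 and 10.29 to 4.52 and 4.67, at least 48.1-fold lower, and the NK receptor gene Cd244a fell at least 12.9-fold. For all 5 genes the DP and ProT arrays were over 3 log2 units apart. Only 3 members were lower when any one of the 4 DP and ProT arrays was left out. Cd1d1 and Mr1, which present lipid and vitamin antigens to innate-like T cells, rose by 1.77 ± 0.09 and 1.99 ± 0.17, within 5 of 9 class I presentation genes higher and 2 lower (3 higher without DP replicate 1 or without DP replicate 2).

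Of 27 chemokine receptors and homing genes 8 were higher and 7 lower; their median was -0.01 and changed sign with scaling. Ccr7, which guides thymocytes to the medulla, was at 9.11 and 8.84 in ProT and at 11.13 and 11.12 in DP (2.15 ± 0.10), and Plxnd1, a semaphorin receptor of thymocytes, rose by 2.27 ± 0.10. Cxcr5, a follicle homing receptor, fell from 9.86 and 9.54 to 5.33 and 5.27, a level near that of HSC at 5.03 and 5.15. Ccr2 fell at least 18.1-fold and Cxcr6, found on innate lymphocytes, 9.91-fold. Without DP replicate 2, 5 were higher, as without ProT replicate 1. Of 31 integrins and adhesion genes, 8 were higher and 13 lower (median -0.18). Cd2 rose from 6.16 and 6.27 to 11.85 and 11.88, the thymocyte surface protein gene Ly6d from 9.37 and 8.93 to 12.53 and 12.50, and the co-stimulatory receptor gene Cd28 by 2.14 ± 0.10. Itgae, the alpha chain of a gut homing integrin, fell from 11.04 and 11.01 to 7.45 and 7.37. The myeloid integrin Itgam and the platelet integrin Itga2b changed by -2.51 ± 0.14 and -2.93 ± 0.38.

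Of 33 enzymes that build surface sugars 16 were lower and 5 higher (median -0.45). Gcnt1, which branches O-linked sugars, was at 9.54 and 9.80 in ProT and at 6.13 and 6.06 in DP, at least 11.9-fold lower. St6galnac6, a sialyltransferase, fell at least 8.56-fold. The rises were led by Galnt10, which starts O-linked chains (1.42 ± 0.07).

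The cytokine receptors and their feedback genes fell more often than they rose. Of 34 cytokine receptor genes 16 were lower and 10 higher (median -0.41). Growth factor receptors of progenitors and myeloid cells were among the largest falls: Kit, the SCF receptor, was at 12.04 and 11.90 in ProT and at 8.77 and 8.64 in DP, 9.60-fold lower, and Csf2rb2, a beta chain of the IL3 receptor, was 7.86-fold lower. Il18rap, an IL18 receptor chain, fell at least 10.2-fold. Il21r was at 8.43 and 8.23 in ProT and at 10.44 and 10.45 in DP (2.11 ± 0.12), and Il6st, the shared chain of the IL6 receptor family, rose by 2.10 ± 0.16. Il7r, the receptor of the cytokine in the ProT culture, did not pass, at 11.26 and 11.78 in ProT and 11.20 and 11.13 in DP (-0.36 ± 0.17). The number of higher receptors was 4 without DP replicate 1, 3 without DP replicate 2 and 5 without ProT replicate 2.

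Of the 24 JAK, STAT and feedback genes 11 were lower and 6 higher (median -0.31), with 3 higher without DP replicate 1. The 4 largest falls were of genes that STAT5, the factor that IL7 and related cytokines activate, is known to induce. Socs2, which feeds back on cytokine receptors, was at 11.60 and 11.61 in ProT and at 6.68 and 6.69 in DP, at least 30.3-fold lower (adjusted p = 1.57e-05), and HSC lay at 7.08 and 6.60. Cish was at 10.30 and 10.59 in ProT and at 7.89 and 7.40 in DP (-2.80 ± 0.20), and the survival kinase genes Pim1 and Pim2 changed by -2.17 ± 0.16 and -1.54 ± 0.12. Bcl6, a repressor that STAT5 holds down in other lymphocytes, rose from 7.90 and 7.96 to 10.90 and 10.80. STAT5 activity was not measured, and its part in these changes was not tested.

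Transcription factors of the T lineage were mostly higher in DP, and those of effector and innate lymphocytes were not. Of 32 T lineage factors 17 were higher and 4 lower (median 0.55). Beside the large rise of Lef1, Ets2 was at 8.40 and 8.38 in ProT and at 12.58 and 12.50 in DP (17.8-fold). Ikzf3 (Aiolos), an Ikaros family factor, was at 8.13 and 8.10 in ProT and at 11.84 and 11.74 in DP (12.8-fold). The groups did not overlap for either gene, and their HSC values lay at or below 9.32. The fallen members were Runx3, which represses Cd4 in cytotoxic cells, from 12.12 and 12.01 to 9.82 and 9.72, Zbtb16, the factor of innate-like T cells, from 9.90 and 9.68 to 7.23 and 7.46, Rora, from 9.69 and 10.23 to 7.30 and 7.47, and Gata3 (-0.73 ± 0.08). Of 17 effector and innate lymphoid factors 11 were lower and 0 higher (median -0.87), although 1 was higher after median centring, with a trended robust prior and without DP replicate 2. Nfil3, needed for NK cell formation, fell at least 9.15-fold. Bhlhe40 was at 10.35 and 10.58 in ProT and at 6.20 and 5.99 in DP, at least 20.7-fold lower. With either DP array left out, 7 were lower.

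E proteins are the helix-loop-helix factors that drive Rag and Cd4 expression, and Id proteins block them. Of 15 genes for E proteins, Id proteins and partners 8 were lower and 3 higher (median -0.35). Id2 fell from 12.92 and 13.06 to 11.36 and 11.30 (-1.66 ± 0.25), while Id3, which T cell receptor signals induce, rose from 7.96 and 8.43 to 10.37 and 10.17 (2.07 ± 0.18). Tcf12, the E protein HEB, rose by 0.96 ± 0.13. Lyl1, a progenitor partner of E proteins, was at 10.61 and 10.53 in ProT and at 7.67 and 7.66 in DP. Leaving out either DP array left 5 members lower.

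Of 29 genes of the BCL2 family and death regulators 6 were higher and 7 lower (median 0.05), not far from the 14.5% and 18.1% of all genes. Bcl2l1 (BCL-XL), the survival protein of double positive thymocytes, was at 8.94 and 8.88 in ProT and at 11.18 and 11.08 in DP, 4.64-fold higher. Bcl2, that of the stages before and after, was at 12.18 and 12.60 in ProT and at 10.85 and 10.90 in DP, 2.86-fold lower. Fas, a death receptor, was at 5.37 and 5.22 in ProT and at 9.80 and 9.87 in DP, at least 23.3-fold higher. Both DP arrays lay outside the ProT range in each case. Cflar, which blocks death receptor signals, rose by 0.96 ± 0.09, and the death ligand Tnfsf10 and the BH3 gene Pmaip1 changed by -1.02 ± 0.10 and -0.82 ± 0.11. After quantile normalization 13 of the list were higher. Leaving out either DP array left 4 higher.

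**Figure D3:**
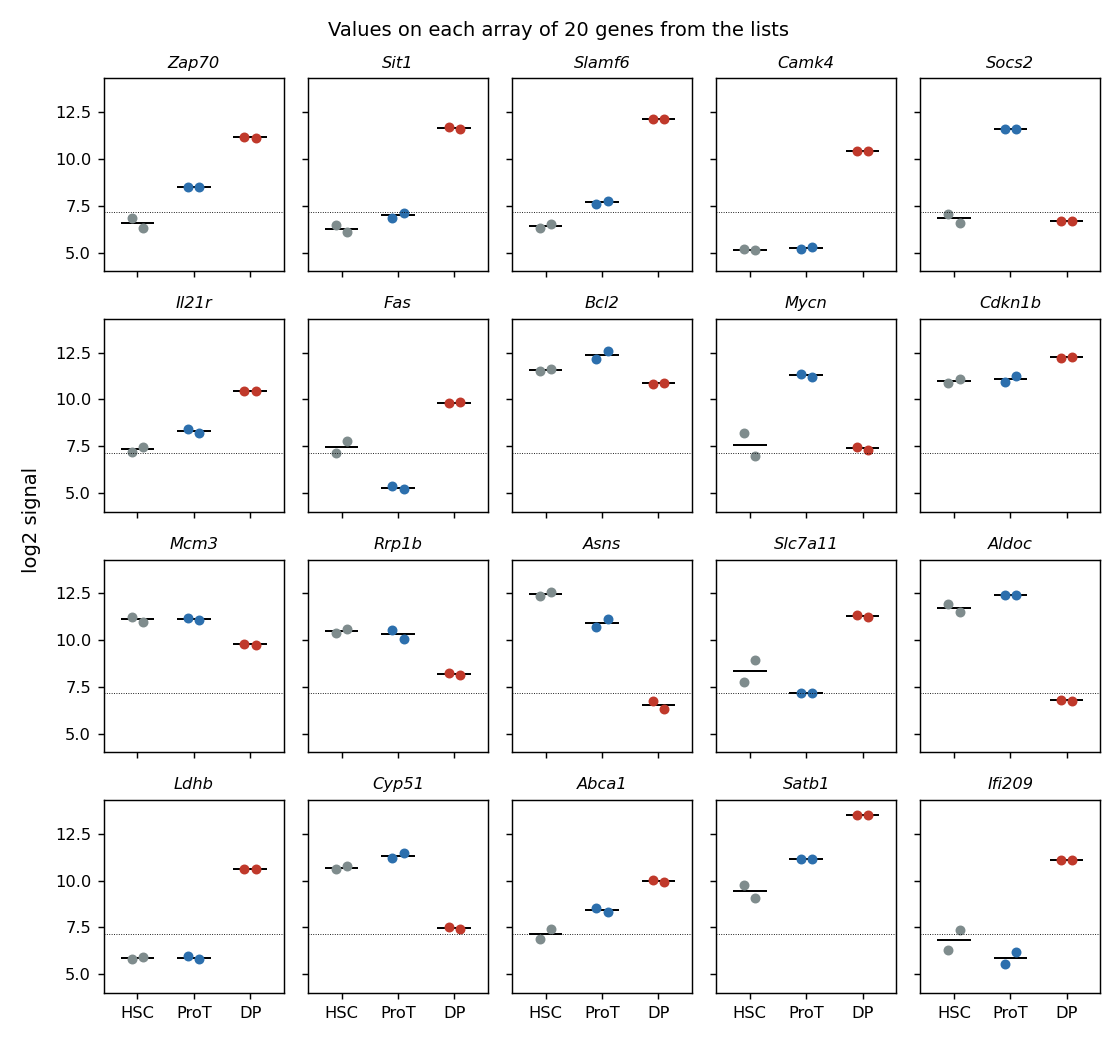
Log2 signal of 20 genes on the HSC, ProT and DP arrays. Each point is an array, the bars are means of 2 arrays and the dotted line marks 7.17. In each panel the 2 DP points lie on 1 side of both ProT points; in Socs2 and Mycn the DP points lie near those of HSC, while in Asns, Aldoc and Cyp51 they lie below both other populations.

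Replication genes fell together by small amounts. Of 51 measured DNA replication genes 36 were lower and 2 higher (median -0.59), with 9 falls of at least 2-fold. Mcm3, a subunit of the replicative helicase, was at 11.19 and 11.08 in ProT and at 9.81 and 9.73 in DP (-1.36 ± 0.10, adjusted p = 0.000333). Rfc2, of the clamp loader, changed by -1.21 ± 0.18 and Pole, the leading strand polymerase, by -1.14 ± 0.11. Orc4, of the origin complex, rose by 0.80 ± 0.14. The lower members numbered 24 without DP replicate 1 and 23 without DP replicate 2. Many replication genes carry an E2F site. Of 43 members with a promoter sequence 25.6% held TTTNNCGC on either strand in the 250 bases before a start site, beside 6.32% of 15614 genes. This is a description of letters, not of binding. The windows around the match (20 bases either side, cut at the start site) are shown for the 3 members with a match that fell most, 5′ to 3′ on the strand of the gene, with the match in capitals (GRCm38.p6).
Orc1 (chr4:108579407-108579453, plus strand): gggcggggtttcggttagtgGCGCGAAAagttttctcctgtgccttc
Mcm6 (chr1:128359725-128359772, minus strand): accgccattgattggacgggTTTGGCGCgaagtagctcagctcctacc
Cdc6 (chr11:98907993-98908040, plus strand): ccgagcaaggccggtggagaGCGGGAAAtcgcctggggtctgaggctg

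These 3 genes changed by -1.11 ± 0.11 (Orc1, the largest subunit of the origin complex), -0.83 ± 0.08 (Mcm6, of the helicase) and -0.74 ± 0.07 (Cdc6, a helicase loader). The E2F genes were split: E2f2 rose from 8.93 and 8.97 to 10.48 and 10.48, while E2f1, E2f3 and E2f6 changed by -1.21 ± 0.16, -1.40 ± 0.13 and -1.43 ± 0.12. Of 31 genes for D cyclins, CDKs, their inhibitors and E2F partners, 13 were lower and 7 higher (median -0.22). Ccnd2, the cyclin that couples growth signals to division, was at 12.49 and 12.21 in ProT and at 10.85 and 10.89 in DP. The CDK inhibitor genes Cdkn1b (p27) and Cdkn2c (p18) rose, the first from 10.96 and 11.28 to 12.23 and 12.27 and the second by 1.14 ± 0.12.

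Mitotic genes moved less evenly. Of 55 members 22 were lower and 2 higher (median -0.40), 2 of them lower by at least 2-fold, Cenph, a kinetochore protein (-1.67 ± 0.12), and Cdca5, which keeps sister chromatids together (-1.11 ± 0.10). Smc4, of condensin, rose by 1.70 ± 0.41, with ProT values of 9.77 and 11.13. The counts rested on single arrays: 35 were lower without ProT replicate 1, 15 were lower and 10 higher without ProT replicate 2, and the lower members numbered 11 without DP replicate 1 and 7 without DP replicate 2. Of 47 members with a promoter 66.0% held CCAAT, beside 38.8% of all genes. The canonical histones, made during DNA synthesis, ran otherwise: 12 of 25 were higher and 1 lower (median 0.45), with H2aw from 12.41 and 12.47 to 13.36 and 13.33. Histone genes are near-identical and can share probes. Their higher count was 4 without DP replicate 1 or without DP replicate 2, 7 without ProT replicate 1 and 6 without ProT replicate 2. Of 33 repair genes of the damage response and homologous recombination, which acts after replication, 14 were lower and 2 higher, led by Rad51b (at least 3.54-fold lower) and Chek2 (2.88-fold lower). There were 8 lower members without DP replicate 1 and 7 without DP replicate 2, and 6 higher members without ProT replicate 2. Lig4, of the end joining that seals receptor gene breaks, ran the other way, from 8.44 and 8.88 to 11.66 and 11.66.

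Of 13 members of the MYC, MAX and MXD network, which drives growth, 3 were higher and 3 lower, with a median of 0.00. Mycn was at 11.39 and 11.22 in ProT and at 7.49 and 7.29 in DP, 15.1-fold lower (adjusted p = 0.000838), with HSC at 8.22 and 6.96. Myc was at 12.34 and 12.40 in ProT and at 11.08 and 11.00 in DP, 2.51-fold lower. The antagonist gene Mxd4, whose protein competes for the partner MAX, rose by 1.23 ± 0.15, and Mga, another MAX partner, by 1.04 ± 0.19. Leaving out either DP array left 1 higher.

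Ribosome biogenesis in the nucleolus, a known MYC-driven process, had 47 of 59 members lower and 3 higher (median -0.80). Rrp1b was at 10.56 and 10.05 in ProT and at 8.23 and 8.15 in DP (-2.11 ± 0.18), and Polr1b, the second subunit of RNA polymerase I, changed by -1.66 ± 0.22. Gnl3 (nucleostemin) was at 10.51 and 10.25 in ProT and at 9.02 and 9.06 in DP. Tcof1, a helper of polymerase I, rose by 0.80 ± 0.10. The lower count fell to 25 without DP replicate 1 and to 22 without DP replicate 2. The E-box CACGTG was found in 5.88% of 51 member promoters and in 8.11% of all. The products of this process moved less: of 55 cytosolic ribosomal protein genes 6 were lower and 0 higher (median -0.31), beside 18.1% and 14.5% of all genes. Near-identical copies can share probes. With only the 4 DP and ProT arrays in the fit 32 were lower; without DP replicate 1 or without DP replicate 2, 1 was, without ProT replicate 1, 2 and without ProT replicate 2, 3. Of 39 translation factors 19 were lower and 2 higher, led by the initiation repressor gene Eif4ebp1 (-1.56 ± 0.13). Their lower count was 10 without DP replicate 1, 6 without DP replicate 2 and 10 without ProT replicate 1.

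The genes that load and import amino acids fell as well. Of 34 members 27 were lower and 3 higher (median -0.76). Asns, which makes asparagine and responds to amino acid shortage through ATF4, was at 10.68 and 11.11 in ProT and at 6.73 and 6.33 in DP, at least 20.6-fold lower, with HSC at 12.37 and 12.54. Slc7a5, the large neutral amino acid transporter, was at 12.14 and 11.83 in ProT and at 10.23 and 10.22 in DP, and the valine tRNA synthetase gene Vars changed by -1.65 ± 0.16. Sesn2, a leucine sensor, changed by -1.79 ± 0.12. Slc7a11, the cystine importer, was the exception, at 7.17 and 7.18 in ProT and at 11.35 and 11.24 in DP, 17.4-fold higher. The ATF4 target Ddit3 rose by 0.47 ± 0.08. The lower count was 16 without DP replicate 1 and 15 without DP replicate 2. Of 24 members with a promoter 20.8% held TGATGNAA, the core of the element that ATF4 and C/EBP proteins are known to bind, beside 3.15% of all genes. The match is also in the promoter of Slc7a11, the member that rose most. The 4 fallen members with a match are shown as above.
Asns (chr6:7693210-7693252, minus strand): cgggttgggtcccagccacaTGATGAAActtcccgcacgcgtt
Gars (chr6:55037951-55037998, plus strand): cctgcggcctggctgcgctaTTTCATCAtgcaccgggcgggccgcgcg
Chac1 (chr2:119351029-119351076, plus strand): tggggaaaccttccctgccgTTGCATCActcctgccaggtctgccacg
Tars (chr15:11399659-11399693, minus strand): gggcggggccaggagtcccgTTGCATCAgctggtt

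In Asns the letters run with the gene and end 15 bases before its start site, and in the other 3 they run on the other strand. Gars and Tars, which load glycine and threonine on their tRNAs, changed by -0.83 ± 0.15 and -0.64 ± 0.19, and Chac1, which breaks down glutathione, by -0.74 ± 0.18. These changes were smaller than that of Asns. No binding was measured, and whether the letters bear on any of these changes was not tested.

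Glycolysis genes were more often lower than higher. Of 23 glycolysis and lactate genes 14 were lower and 4 higher (median -1.03), and 12 of the falls were at least 2-fold. Aldoc, an aldolase, was at 12.43 and 12.43 in ProT and at 6.82 and 6.73 in DP, at least 50.3-fold lower (adjusted p = 1.09e-05). Hk2, the hexokinase of growing cells, was at 10.18 and 10.68 in ProT and fell at least 11-fold. Slc2a3, a glucose transporter, fell from 11.64 and 12.27 to 8.80 and 8.87, and Slc16a3, the lactate exporter of glycolytic cells, 11.0-fold. ProT arrays were above DP arrays in all 4 genes, by over 2 log2 units. Ldhb, the lactate dehydrogenase subunit that favours lactate use, was at 5.96 and 5.81 in ProT and at 10.61 and 10.60 in DP, at least 26.3-fold higher. Its partner subunit gene Ldha lay between 13.07 and 13.61 on the ProT and DP arrays and changed by -0.50 ± 0.07. Of the pentose phosphate genes 5 of 7 were lower and 0 higher, led by Tkt (-1.72 ± 0.12), with 3 lower without DP replicate 1 or without ProT replicate 1 and 2 without DP replicate 2.

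Sterol synthesis was the list with the lowest median change of the metabolic lists tested, -1.58, with 21 of 27 members lower and 5 higher. Its genes are switched on together by SREBP2 when cells are short of cholesterol. Cyp51, the lanosterol demethylase, was at 11.21 and 11.46 in ProT and at 7.53 and 7.44 in DP, 14.4-fold lower (adjusted p = 1.37e-05). Hmgcs1, at the entry of the pathway, was at 11.99 and 12.40 in ProT and at 9.18 and 9.10 in DP. Msmo1 and Lss, of its later steps, changed by -3.19 ± 0.17 and -2.95 ± 0.12. Among the higher members were genes of export and of blocked uptake: Abca1, a cholesterol exporter, was at 8.56 and 8.31 in ProT and at 10.04 and 9.95 in DP, Mylip, which degrades the LDL receptor, rose by 0.95 ± 0.10, and Nr1h3 (LXR alpha), which turns both on, by 0.85 ± 0.09. HSC values of Cyp51 (10.61 and 10.78) and Hmgcs1 (11.52 and 11.29) lay nearer to ProT. The count of lower members lay between 19 and 21 without any of the DP or ProT arrays in turn. The higher count was 3 without DP replicate 1, without DP replicate 2 or without ProT replicate 1. Of 22 member promoters 1, that of Hmgcs1, held TCACNCCAC, beside 1.20% of all genes.
Hmgcs1 (chr13:119690194-119690242, plus strand): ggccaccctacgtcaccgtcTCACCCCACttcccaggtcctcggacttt

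Of 26 fatty acid genes 18 were lower and 0 higher (median -0.89), although 1 was higher under each of the other scalings and without ProT replicate 1. Scd1, which desaturates stearate, was at 12.17 and 12.32 in ProT and at 7.14 and 7.27 in DP, 32.9-fold lower. The desaturase gene Fads2, the elongase gene Elovl6 and Acaca, the entry enzyme, changed by -2.54 ± 0.08, -2.10 ± 0.20 and -2.02 ± 0.12. Of 33 nucleotide and one-carbon genes 24 were lower and 3 higher (median -0.86). Mthfd2, the mitochondrial folate enzyme of dividing cells, was at 10.71 and 10.78 in ProT and at 8.96 and 8.66 in DP, and Cad, the entry enzyme of pyrimidine synthesis, changed by -1.59 ± 0.13. Ada, the adenosine deaminase whose loss blocks thymocyte survival, rose from 9.60 and 9.53 to 10.89 and 10.79.

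Antioxidant genes fell in 14 of 22 cases, with Slc7a11 the lone rise (median -0.71). Nqo1, a quinone reductase that NRF2 induces, was at 10.17 and 9.95 in ProT and at 5.70 and 5.40 in DP, at least 22.7-fold lower. The other NRF2 targets Gclm and Txnrd1 changed by -1.43 ± 0.24 and -1.30 ± 0.10. Without DP replicate 2, 9 were lower. Chaperone genes were lower in 25 of 33 cases and higher in 1 (median -0.62), led by Ern1, the sensor of unfolded protein in the secretory pathway (-1.61 ± 0.10); 12 were lower without DP replicate 2.

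The mitochondrial lists moved by less per gene, and their lower counts stand beside 18.1% of all genes lower. Of 75 mitochondrial ribosomal proteins 33 were lower and 2 higher (median -0.35), of 74 respiratory chain genes 17 and 1 (median -0.24), of 22 citrate cycle genes 15 and 0 (median -0.44) and of 28 import genes 17 and 0 (median -0.44). The largest falls in these 4 lists were Mrps18b (-1.13 ± 0.14), Cox5a (-0.96 ± 0.24), Suclg2 (-1.66 ± 0.07) and Timm8a1 (at least 2.87-fold lower). Their lower counts depended on single arrays. In the same order they were 13, 10, 8 and 8 without DP replicate 1, 9, 5, 6 and 6 without DP replicate 2, and 10, 10, 10 and 10 without ProT replicate 1. With only the 4 DP and ProT arrays in the fit, 34 respiratory chain genes were lower. Of 38 proteasome genes 18 were lower and 1 higher, all by under 2-fold, with 6, 5 and 7 lower without DP replicate 1, DP replicate 2 and ProT replicate 1.

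**Figure D4:**
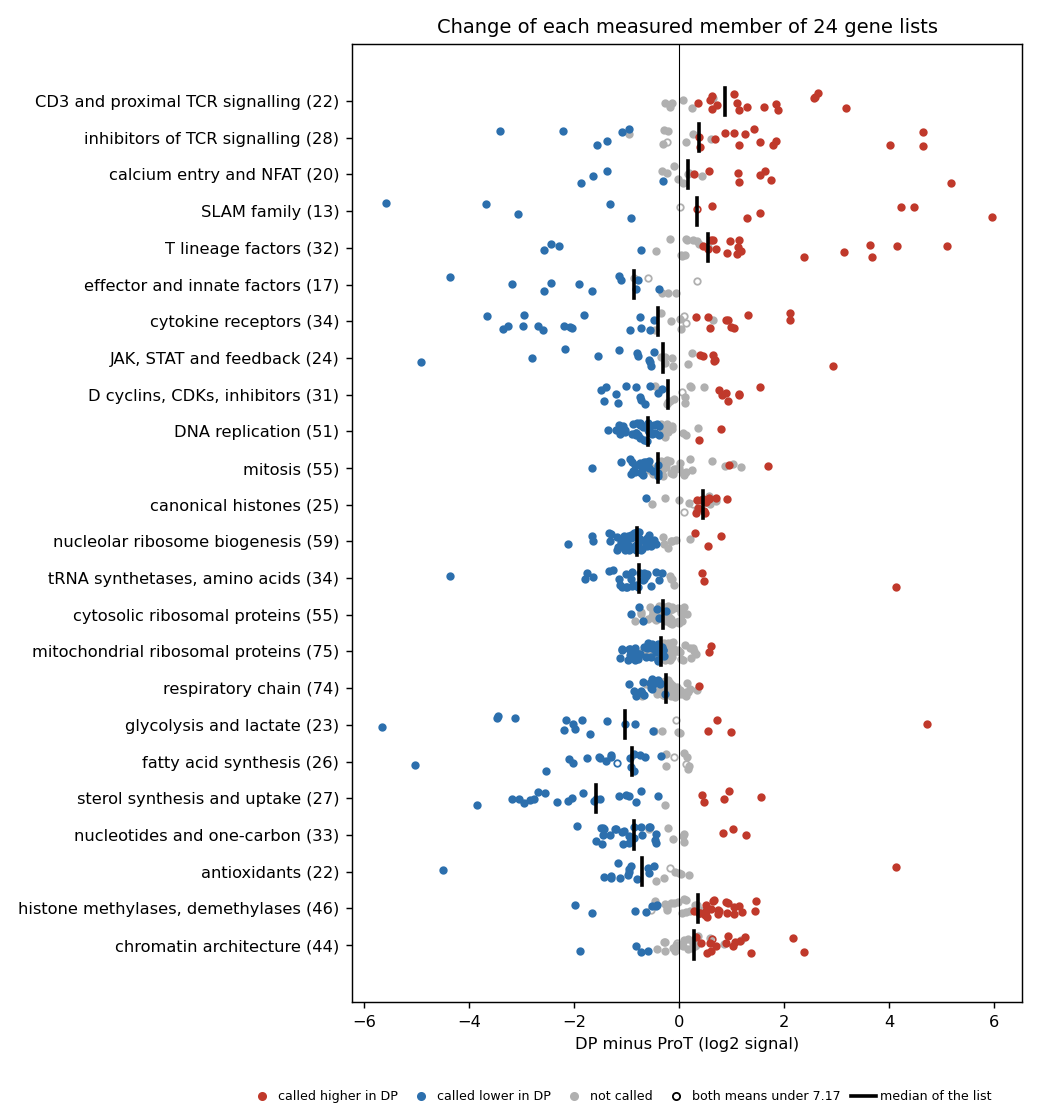
Log2 change from ProT to DP of every measured member of 24 gene lists, with the number measured in brackets. Each point is a gene, coloured by its call and open where both means lie under 7.17, and the black bars are list medians. The bars of T cell receptor signalling, T lineage factors and histone enzymes lie right of 0, and those of the growth and metabolic lists lie left of it, from -1.58 for sterol synthesis to -0.24 for the respiratory chain.

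Lists of chromatin genes differed. Of 46 histone lysine methylases and demethylases 23 were higher and 7 lower (median 0.36). Kdm1b, a demethylase, was at 8.44 and 8.53 in ProT and at 9.67 and 9.59 in DP, and Kmt5b, a methylase of histone H4, rose by 1.19 ± 0.13. Smyd2, a methylase with many non-histone targets, fell from 10.10 and 9.84 to 7.97 and 8.01. The higher count was 9 without DP replicate 1, 10 without DP replicate 2 and 14 without ProT replicate 1. Of 44 remodelling and architecture genes 16 were higher and 4 lower (median 0.29). Satb1, which folds chromatin in thymocytes, was at 11.13 and 11.14 in ProT and at 13.51 and 13.53 in DP. The cohesin genes Nipbl, Stag2 and Stag1 rose by 2.17 ± 0.43, 1.37 ± 0.37 and 1.26 ± 0.24, but their ProT arrays disagreed: Nipbl was at 8.55 and 9.85, Stag2 at 8.75 and 9.99 and Stag1 at 8.76 and 9.53. The DP arrays lay above both in each case (11.37 and 11.38 for Nipbl). Without DP replicate 1 there were 5 higher and without DP replicate 2 there were 6.

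Among 32 histone acetylation genes 9 were higher and 4 lower (2 lower after median centring), beside 14.5% and 18.1% of all genes. Ncoa1 and Kat6b, both acetylases, rose by 1.95 ± 0.17 and 1.69 ± 0.09. Of 9 histone variants and linker variants 3 were lower and 0 higher, although up to 2 were higher under other settings (2 after median centring). Polycomb genes were even, 5 of 29 higher and 5 lower, not far from the 14.5% and 18.1% of all genes. Their higher count was 3 at an adjusted p below 0.01 in limma and 8 after quantile normalization. Of 17 genes for DNA methylation and its removal 5 were lower and 2 higher, and the list median of -0.12 changed sign with scaling. Dnmt3b, a methylase that sets new marks, was at 9.28 and 9.23 in ProT and at 6.74 and 6.72 in DP, at least 5.74-fold lower. Tet1, which oxidises the mark, rose from 8.83 and 9.29 to 10.76 and 10.73. The lower count was 2 without DP replicate 1, without DP replicate 2 or without ProT replicate 1, and 3 without ProT replicate 2.

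A pair of families outside the lists, chosen after values were seen, also leaned upward. Of 51 small nucleolar RNA genes 33 were higher and 5 lower (median 0.92); without DP replicate 1 there were 21 higher and 1 lower, and without DP replicate 2 there were 23 and 1. Snord118, the U8 RNA that ribosomal RNA processing needs, was at 9.46 and 8.91 in ProT and at 12.15 and 12.15 in DP, and Snora33 and Snora20 rose by 2.51 ± 0.19 and 2.39 ± 0.19. Dkc1 and Fbl, whose proteins bind such RNAs, were lower (-1.04 ± 0.11 and -0.81 ± 0.09). Many of these RNAs are cut from introns of host genes, so a probe may read the host's RNA as well. Of 347 zinc finger genes named Zfp 119 were higher and 26 lower (median 0.21), with 54 higher and 15 lower without DP replicate 1 and 59 and 12 without DP replicate 2. The largest rise, that of Zfp518a (2.71 ± 0.63), rested on ProT arrays at 6.28 and 8.26 beside 9.99 and 9.97 in DP.

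Interferon-related genes were split by family. Of 31 type I interferon response genes 12 were higher and 8 lower (median 0.11), with Ifit1 from 5.90 and 6.38 to 9.36 and 9.12 and Ifit3 from 5.24 and 5.27 to 8.20 and 7.78. Dhx58, a sensor of viral RNA, changed by -1.20 ± 0.11. The p200 family, DNA sensors in a cluster on 1 chromosome and similar in sequence, had 5 of 10 members higher and 1 lower. Ifi209 was at 5.56 and 6.20 in ProT and at 11.13 and 11.10 in DP, at least 37.6-fold higher, and Ifi208 was at 4.65 and 4.93 in ProT and at 9.66 and 9.67 in DP. Aim2 was the member that fell (-0.60 ± 0.14; it did not pass without any one of the DP or ProT arrays). The Schlafen genes, first known from growth control in thymocytes, rose in 5 of 8 cases and fell in 0. Slfn1 was at 5.50 and 5.39 in ProT and at 9.06 and 8.84 in DP. Slfn5 rose at least 6.41-fold. With either DP array left out, 3 were higher. Without DP replicate 2, 4 interferon response genes were lower.

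Markers of other cell types differed between ProT and DP, and their part in the results above was not tested. In ProT, genes of mast cells and of NK and cytotoxic cells were high: 12 of 18 mast cell genes and 17 of 26 NK genes were lower in DP, and 0 and 2 were higher. The summed linear signal of the mast cell list was 24813 and 24327 on the ProT arrays and 1648 and 1584 on the DP arrays, and that of the NK list was 59742 and 55012 against 7705 and 7308. HSC lay between, at 9202 and 7032 for mast cells and at 20455 and 20947 for NK cells. Among defining NK markers Eomes, Klra8 and Klrc1 lay under 7.17 on all 6 arrays, as did the mast cell genes Cma1 and Tpsab1. Of the gamma delta and innate-like T cell markers 6 of 11 were lower and 0 higher.

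In DP, genes of the thymus stroma were higher. Of 20 thymic epithelial genes 16 were higher and 1 lower (median 0.77). On all arrays 9 of the 20 lay under 7.17, and the filter on dim genes left 9 higher. Their summed linear signal rose from 4514 and 4787 to 9988 and 9946. Ccl25, the chemokine that binds Ccr9, was at 7.07 and 7.35 in ProT and at 10.88 and 10.80 in DP. Prss16, a thymus protease, was at 7.34 and 7.46 in ProT and rose by 2.59 ± 0.09, and the keratins Krt8 and Krt18 rose by 2.13 ± 0.08 and 2.33 ± 0.11. Foxn1, a factor of thymic epithelium, and Psmb11, of its cortical part, stayed under 7.17 on all arrays, though above their ProT values. In DP Foxn1 was at 6.38 and 6.36 and Psmb11 at 6.66 and 6.68. Epcam was the member that fell, from 9.96 and 10.08 to 7.48 and 7.36.

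Of 21 macrophage markers 10 were higher and 3 lower, with C1qb from 6.60 and 6.07 to 9.56 and 9.37, C1qc by at least 4.96-fold and F13a1 from 6.17 and 5.84 to 11.63 and 11.50, while Adgre1, the F4/80 antigen, fell from 11.02 and 11.18 to 7.10 and 7.13. With either DP array left out, 5 macrophage markers were higher. The summed macrophage signal was 6809 and 6368 in ProT, 9446 and 8844 in DP and 17724 and 22687 in HSC. Of 19 B lineage markers 10 were higher and 3 lower, 9 of the higher ones with both means under 7.17, and Cd79a and Ms4a1 were below it on all arrays. With either DP array left out, 6 B lineage markers were higher. Their summed linear signal was 6001 and 6340 in ProT and 4239 and 4122 in DP, and the largest fall was that of Cd72 (-2.74 ± 0.25). Of 20 fibroblast and endothelial markers 6 were higher and 3 lower (3 higher without DP replicate 2 or without ProT replicate 2), with Dcn, a matrix protein of fibroblasts, up at least 6.79-fold and Pdgfrb down 12.3-fold. Alas2, of red cell heme synthesis, rose at least 6.45-fold, the lone rise among 15 erythroid and megakaryocyte genes.

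**Figure D5:**
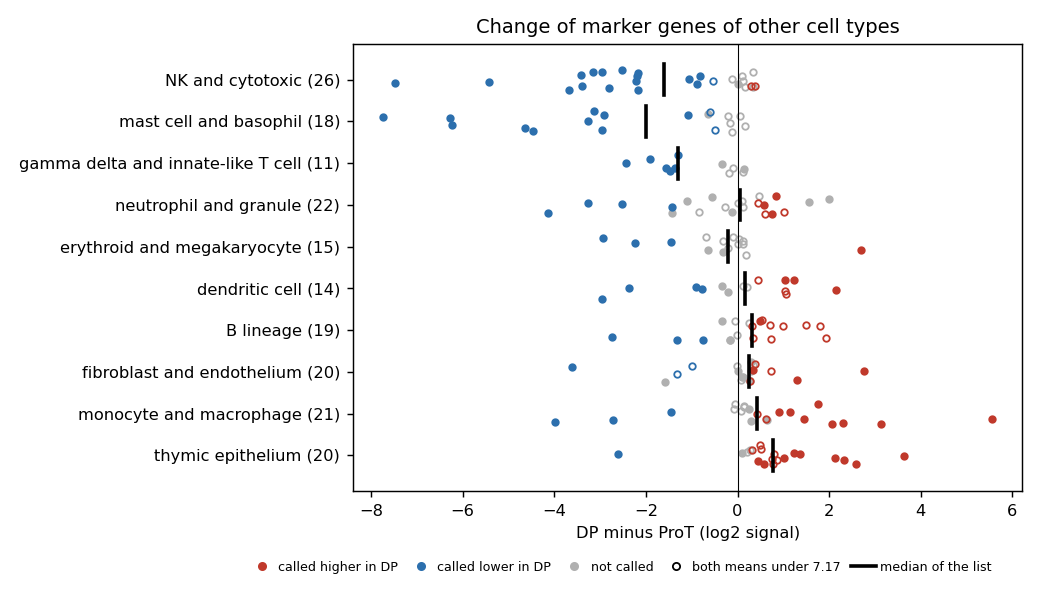
Log2 change from ProT to DP of marker genes of 10 other cell types, with the number measured in brackets; points, colours and bars are as in the plot of gene lists. Mast cell and NK markers lie far left, with medians of -2.0 and -1.61, and the thymic epithelial markers lie mostly right of 0, with a median of 0.77.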

How the data were processed

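The deposited values are log2 signals of Affymetrix gene arrays, 6 arrays in 3 populations of 2, which the authors made by RMA in Partek, per the submitters' processing notes; neither has a version in the sources used here. RMA equalises the distributions of the arrays, so a shift of all genes in 1 direction would not show. Of 35556 probe sets 21789 mapped to 1 gene, 1621 to several and 12146 to none in the platform annotation, and 21698 matched the RefSeq gene table by identifier. Where 1 of the 999 genes with several probe sets is named, the one with the highest mean is meant.

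Group means were fitted on all 6 arrays with limma 3.58.1 in R 4.3.3, and DP minus ProT was tested with a constant prior and Benjamini-Hochberg adjustment over 19938 genes. On simulated data with 50 genes of each size changed and 170 called in all, 30% of changes of 0.5 log2 units and 94% of changes of 1 were called. Far fewer genes were changed there than the 6506 called here, which makes the adjustment stricter, so these shares do not carry over. HSC shares in the estimate of the spread only. Files give no depth, and the number of arrays limits the precision.

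The genes compared and the 68 gene lists were chosen with earlier results of these data known. Named genes are the 15 largest rises and falls, passing over genes without a proper symbol, with groups that do not overlap; up to 4 called members per direction and up to 2 others of each list; all members of lists of at most 13; and fixed stage genes. Named after their values were seen were the microRNA, small nucleolar RNA, zinc finger, p200 and alpha variable segment families with their hosts, the genes with printed promoter windows, Foxn1, Klrc1, Cma1, Tpsab1, Dgke, Cd3e, Id2, Ldha, Dkc1 and Fbl. Genes of the lists without a probe set of their own were not analysed here. Alternatives were the replicate block, other scalings, a filter on dim genes, other probe set rules, other spread estimates, a stricter threshold and leaving out each array.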

Additional observations from a re-analysis of the deposited data

How the results depend on the processing

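Of the 2899 genes higher and 3607 lower in DP, median centring gave 4680 higher, and an adjusted p below 0.01 in limma (Benjamini-Hochberg) left 1645 higher and 2396 lower. Leaving out each array in turn gave 1467 to 3282 higher and 2047 to 4126 lower, with 1467 and 2280 without DP replicate 1 and 1484 and 2047 without DP replicate 2; fewer arrays enter those fits. The replicate block gave 2722 and 3546. Same-numbered arrays did not deviate together (correlations of 0.06, -0.02 and -0.04). With 2 arrays in each population this cannot tell whether they shared a culture, mouse or batch. No gene that the naming rule covers reversed. Genes named outside that rule, such as those of the microRNA and small nucleolar RNA families, were not checked for this. Of 573 genes the naming rule covers, 95 were no longer past the threshold without DP replicate 1, 100 without DP replicate 2, 46 without ProT replicate 1 and 39 without ProT replicate 2. Medians of the DNA methylation and chemokine receptor lists changed sign with scaling. With 2 arrays in each population, how often changes under 1 log2 unit were missed is not known. Of the called genes, 1157 higher and 1009 lower changed by under 1.5-fold.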
